A study of Mus musculus with 6 samples.

Results

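The cytotoxic granule genes of Treg were examined as a set of 10 genes, Gzma, Gzmb, Gzmc, Gzmk, Gzmm, Prf1, Nkg7, Srgn, Cst7 and Ctsw, out of 22180 genes that the array names with a probe set of their own. A probe set is the group of short oligonucleotides that measures a transcript, and a gene was taken only from a probe set annotated to it alone. Each of the 10 genes had exactly 1 such probe set, so none had to be chosen among several. The values are log2 signals from 6 whole-mouse-genome arrays of CD4+CD25+ Treg, with 3 arrays of HDAC10-/- and 3 of wild type (WT) Treg, each from an independent sample. All mice were female, 8 to 12 weeks old and named C57BL/6, and their Treg were taken from untreated spleens and peripheral lymph nodes by magnetic separation. The HDAC10-/- mice carry the deletion in every cell and come from a B6N strain, while the substrain of the WT mice is not given in the sources used here, so substrain and genotype cannot be told apart.

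Cytotoxic granules are secretory lysosomes that killer cells empty onto a target. Perforin opens the target's membrane, and granzymes, a family of serine proteases, pass through and cleave proteins in its cytosol and nucleus. Granzymes are made as inactive precursors that the lysosomal protease cathepsin C trims, and inside the granule they are held by the proteoglycan serglycin. NK cells and CD8 T cells are the best-known users of this machinery, but activated mouse Treg also express granzyme B, which is one of the means by which they suppress or kill other lymphocytes.

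The stretch of 250 bases before the transcription start is shown for the 2 members that rose and the 1 that fell, because these passed the test between genotypes. The sequences come from RefSeq (GRCm38.p6) and are written 5′ to 3′ on the strand of the gene, with matches in capitals. The motifs searched, on both strands, were TGTGGT for RUNX factors, TGANTCA for AP-1, TGACG as the core of a cyclic AMP response element, GGTGTGA for T-box factors and TTCNNNGAA for STAT factors. The Gzmb stretch lies at chr14:56262335-56262584, minus strand, the Gzma stretch at chr13:113100982-113101231, minus strand, and the Cst7 stretch at chr2:150570165-150570414, plus strand.
Gzmb: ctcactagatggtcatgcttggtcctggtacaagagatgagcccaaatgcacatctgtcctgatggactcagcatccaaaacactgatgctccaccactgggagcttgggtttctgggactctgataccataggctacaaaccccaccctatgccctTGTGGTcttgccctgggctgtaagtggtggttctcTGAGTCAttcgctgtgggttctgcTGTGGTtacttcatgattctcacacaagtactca
Gzma: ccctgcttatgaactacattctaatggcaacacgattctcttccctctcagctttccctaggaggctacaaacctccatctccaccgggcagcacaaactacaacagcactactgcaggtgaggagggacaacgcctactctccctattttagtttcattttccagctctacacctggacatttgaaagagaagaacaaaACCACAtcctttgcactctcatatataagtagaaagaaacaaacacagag
Cst7: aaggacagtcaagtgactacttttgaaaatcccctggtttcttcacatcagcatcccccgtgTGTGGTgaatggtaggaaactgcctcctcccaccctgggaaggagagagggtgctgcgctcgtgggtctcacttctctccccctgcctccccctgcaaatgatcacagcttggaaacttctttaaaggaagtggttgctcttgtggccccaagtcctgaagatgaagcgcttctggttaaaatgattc

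In Gzmb the RUNX letters occurred at 93 to 88 and at 34 to 29 bases before the start, with the AP-1 letters between them at 58 to 52. Gzma held the RUNX letters once, on the opposite strand, at 50 to 45 bases before the start, and Cst7 held them once, at 188 to 183. The table matched 9 of the 10 members, all but Ctsw, with 11 windows, since Gzmm and Srgn have 2 starts each. The RUNX letters were found in 8 of the 9 members and in 8 of the 11 windows, against 4614 (14%) of the 32851 windows in the table. They thus occurred before members that rose, before the member that fell and before members that did not pass the test. The AP-1 letters occurred in Gzmb alone among the members (6.75% of all windows). The cyclic AMP response element core occurred in Gzmc, Prf1 and Srgn (17.8% of all windows), and in Gzmc its 2 matches, on opposite strands, overlap. T-box letters occurred in Gzmk, Gzmm and Nkg7 (3.33% of all windows) and STAT letters in Gzmm and Nkg7 (7.02%). A match is a description of these letters, and binding was not measured.

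The genotypes were first read from Hdac10 itself, whose log2 signal was 6.11 to 6.22 in HDAC10-/- arrays and 8.95 to 9.30 in WT arrays (log2 difference -2.91). The arrays have no read depth and no detection calls, and their number limits the precision: with 3 arrays per genotype an exact permutation of the arrays cannot give a p under 0.1. Differences were therefore tested with limma over all 34472 probe sets, two-sided with Benjamini-Hochberg adjustment, and a gene is said to have risen or fallen where its adjusted p was under 0.1. Across probe sets the arrays correlated at 0.9952 to 0.9968 within HDAC10-/-, at 0.9968 to 0.9971 within WT and at 0.9945 to 0.9954 between genotypes. HDAC10-/- replicate 1 stood apart from the other HDAC10-/- arrays (0.9952 and 0.9953), so counts are also given without it where they differ. Foxp3, the Treg lineage transcription factor, was at 12.53 to 12.66 in HDAC10-/- and 12.50 to 12.58 in WT Treg, above 99% of probe sets. Such a bulk signal does not give the purity of the cells. The T cell genes Cd4 (log2 difference -0.14, adjusted p = 0.331) and Cd3e (-0.063, adjusted p = 0.67) did not pass limma's test. Of 10 genes of Treg and CD4 T cells none rose or fell, the lowest p being those of Cd3d (-0.22, adjusted p = 0.152) and Tnfrsf18 (-0.14, adjusted p = 0.315). For 3 of the 10, Cd4, Cd3d and Tnfrsf18, every HDAC10-/- array lay below every WT array. For 0 it lay above, against 10.9% below and 9.89% above over all probe sets.

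Of the 10 cytotoxic granule genes, 2 rose in HDAC10-/- Treg, the granzyme genes Gzma and Gzmb, and 1 fell, the protease inhibitor gene Cst7. Over all probe sets 1.25% rose and 0.757% fell at the same threshold. With the 1.5-fold minimum of the study's methods the rises of Gzma and Gzmb counted and the fall of Cst7 did not, against 0.424% higher and 0.261% lower over all probe sets. The perforin gene Prf1 and the cathepsin gene Ctsw had differences whose 95% confidence intervals did not include 0 but an adjusted p just over 0.1. The other 5 genes did not pass. The median log2 difference over the 10 genes was 0.038, against 0.00 over all probe sets, with 6 of the 10 above 0. Every HDAC10-/- array lay above every WT array for 3 of the 10 genes and below for 2, against 9.89% and 10.9% of all probe sets. Without HDAC10-/- replicate 1, 3 of the 10 rose and 1 fell, with Prf1 as the added gene. Without any 1 of the other arrays none fell, and Gzmb alone rose without WT replicate 1 or 3 or HDAC10-/- replicate 2. In bulk RNA, fewer cells of a type and less RNA per cell cannot be told apart.

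**Figure D1:**
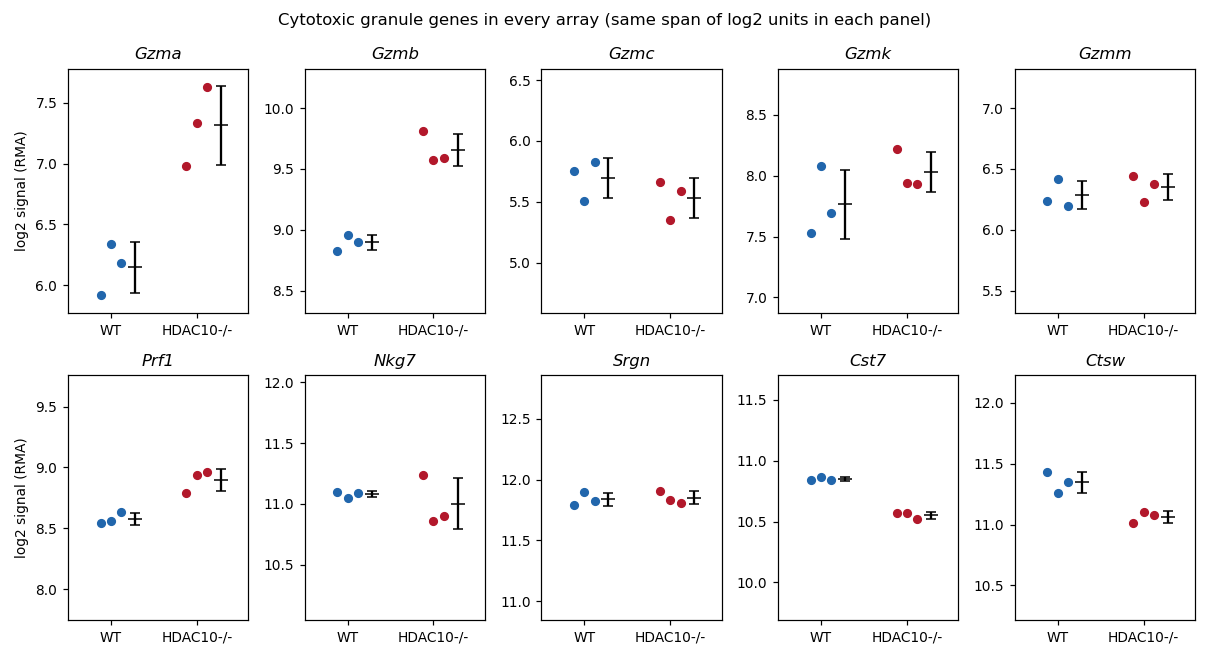
Log2 signal of each cytotoxic granule gene in every array, WT in blue and HDAC10-/- in red, with the mean and SD of 3 arrays beside the points; all panels span the same number of log2 units. Gzma and Gzmb show the widest gaps between genotypes, and Gzmc, Gzmk, Gzmm, Nkg7 and Srgn overlap.

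The granzyme genes Gzma and Gzmb had the largest rises of the members. Gzma encodes granzyme A, a tryptase of cytotoxic granules. Its log2 signal was 6.98, 7.33 and 7.63 in HDAC10-/- replicates 1, 2 and 3, and 5.92, 6.34 and 6.18 in WT replicates 1, 2 and 3. The groups did not overlap and lay 0.64 log2 units apart, although the arrays of each genotype were themselves more widely spread than those of most other members. The mean was 7.31 ± 0.33 (SD, n = 3) against 6.15 ± 0.21 (SD, n = 3), a 2.24-fold higher signal with a 95% confidence interval of 1.69 to 2.98 (adjusted p = 0.0382 from limma). Of the 22180 genes 12 had a larger positive log2 difference. The rise did not pass without HDAC10-/- replicate 2 (adjusted p = 0.139), WT replicate 1 (0.128) or WT replicate 3 (0.13).

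Gzmb encodes granzyme B, which cleaves after aspartate and activates caspases in target cells. The log2 signal of Gzmb was 9.81, 9.57 and 9.59 in HDAC10-/- Treg and 8.83, 8.96 and 8.90 in WT Treg. These groups lay 0.61 log2 units apart, with less spread within each genotype than Gzma had. The HDAC10-/- signal was 1.69-fold the WT signal (log2 difference 0.76, standard error 0.082, adjusted p = 0.0132 from limma), and 58 genes had a larger positive difference. When any 1 array was left out, its difference stayed between 0.68 and 0.80 and its adjusted p between 0.0273 and 0.0732 in limma. The arrays ranked differently for these granzymes: HDAC10-/- replicate 1 had the highest Gzmb signal and the lowest Gzma signal of its genotype. The methods' t-test was recomputed on the deposited values with the same adjustment, without the authors' software. In it Gzmb and Gzma did not pass (adjusted p = 0.122 and 0.185). The paper reported Gzmb mRNA as increased on these arrays and by qPCR.

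The remaining 3 granzyme genes did not pass the test, and their groups overlapped. Gzmk, which encodes the tryptase granzyme K and follows Gzma next in gene order on chromosome 13, was at 8.22, 7.94 and 7.93 in HDAC10-/- and at 7.53, 8.08 and 7.69 in WT Treg. WT replicate 2 lay among the HDAC10-/- arrays. The log2 difference of Gzmk was 0.26 with a 95% confidence interval of -0.089 to 0.62 (adjusted p = 0.475 in limma), an interval that reaches past 1.5-fold. Gzmc encodes granzyme C, which killer T cells make after strong activation, and lies beside Gzmb on chromosome 14. It was at 5.35 to 5.66 in HDAC10-/- and 5.51 to 5.83 in WT Treg, below the median of all probe sets, with a log2 difference of -0.16 (-0.43 to 0.10, adjusted p = 0.562). Gzmm, which encodes granzyme M, had 0.063 (-0.14 to 0.27, adjusted p = 0.788). For Gzmc and Gzmm the intervals exclude a 1.5-fold rise.

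Of the 5 other granzyme genes of the mouse cluster on chromosome 14, 4 had a probe set of their own, Gzmd, Gzmf, Gzmg and Gzmn. None rose or fell, and all 4 were dim, at mean signals below 80% of all probe sets. Those with the smallest p were Gzmg (log2 difference 0.14, adjusted p = 0.439) and Gzmf (0.10, adjusted p = 0.753). In gene order Gzmc, Gzmf, Gzmn, Gzmg, Gzmd and Gzme lie on one side of Gzmb, and Atp12a, which encodes a proton pump subunit and had 0.057 (adjusted p = 0.83), is next on the other. The mast cell proteases of the same cluster, with cathepsin G, made a list of 8 genes of which none rose or fell (median 0.14). Mcpt8 had 0.26 (adjusted p = 0.255) and Mcpt1 0.24 (adjusted p = 0.31). The genes of this cluster arose from each other by duplication. The probe sequences were not analysed here, so each value is that of its probe set. Gpx8 and Atp12a were named as neighbors after their values were seen. Beside Gzma on the side away from Gzmk, Gpx8, which encodes a peroxidase of the endoplasmic reticulum, rose by a log2 difference of 0.39 (adjusted p = 0.0837) at a dim signal of 5.38 against 4.99.

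**Figure D2:**
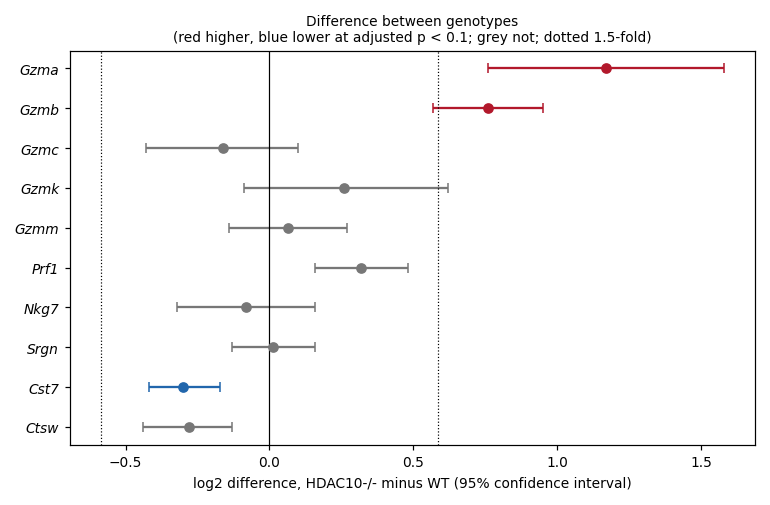
Log2 difference between HDAC10-/- and WT Treg for each gene, with 95% confidence intervals from limma; red and blue mark genes higher or lower at an adjusted p under 0.1, and dotted lines mark 1.5-fold. Gzma (1.17) and Gzmb (0.76) lie beyond the 1.5-fold line, while the intervals of Prf1, Cst7 and Ctsw exclude 0 and stay within 1.5-fold.

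Among the pore-forming and structural granule genes, Prf1 came closest to the threshold. It encodes perforin, the pore through which granzymes enter the target cell. Its log2 signal was 8.79, 8.94 and 8.96 in HDAC10-/- and 8.54, 8.56 and 8.63 in WT Treg. Each HDAC10-/- array was above each WT array, with a gap of 0.16. The log2 difference was 0.32 (0.16 to 0.48) and the adjusted p 0.102 in limma, and 526 genes had a larger positive difference. Prf1 passed without HDAC10-/- replicate 1 (0.37, adjusted p = 0.0645) and under 6 further settings, while its adjusted p reached 0.287 without WT replicate 1. Another probe set, annotated to Prf1 together with a mitochondrial gene, was not used.

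Nkg7 encodes a membrane protein of cytotoxic granules that is needed for their release. It was at 11.24, 10.86 and 10.90 in HDAC10-/- and at 11.10, 11.05 and 11.09 in WT Treg. HDAC10-/- replicate 1 lay above all WT arrays and the other HDAC10-/- arrays below them (log2 difference -0.08, -0.32 to 0.16, adjusted p = 0.778). Srgn encodes serglycin, the proteoglycan that packs granzymes and perforin in the granule and is also made by myeloid and mast cells. It was at 11.81 to 11.91 in HDAC10-/- and 11.79 to 11.90 in WT Treg, above 98% of probe sets. Its log2 difference was 0.013 with a 95% confidence interval of -0.13 to 0.16, and its sign turned under median centring (-0.02).

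For Cst7 and Ctsw every HDAC10-/- array lay below every WT array, as for 10.9% of all probe sets. Cst7 encodes cystatin F, an inhibitor of cathepsins that acts on cathepsin C and so on the activation of granzymes. It was at 10.57, 10.57 and 10.52 in HDAC10-/- and at 10.84, 10.87 and 10.84 in WT Treg. Arrays of a genotype differed by 0.05 or less and the genotypes lay 0.27 apart. The fall was 0.30 on the log2 scale, a signal 1.23-fold higher in WT (adjusted p = 0.0645 from limma). Of the 6 fits that each left out 1 array, Cst7 passed in the one without HDAC10-/- replicate 1 (adjusted p = 0.077) and in none of the other 5 (0.18 to 0.223). Under the methods' t-test it passed (adjusted p = 0.0592). Ctsw encodes cathepsin W, a cysteine protease found mainly in NK and cytotoxic T cells. The signal of Ctsw was 11.01, 11.10 and 11.08 in HDAC10-/- against 11.43, 11.26 and 11.35 in WT Treg, with a gap of 0.16 between the groups. The log2 difference was -0.28 (-0.44 to -0.13, adjusted p = 0.124 in limma). Median centring, which shifted the median of all probe sets by -0.033, brought it to -0.32 (adjusted p = 0.0935). The same centring moved the share of higher among called probe sets from 62.3% to 45.5%.

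The genes that act on granzymes before or after release mostly did not pass the test. Of 8 genes of granzyme activation and inhibition 1 rose, Ctsh, against 1.25% of all probe sets. It encodes cathepsin H, an aminopeptidase of lysosomes that can process granzyme B when cathepsin C is lacking. Ctsh was at 7.87, 7.79 and 7.89 in HDAC10-/- and at 7.33, 7.42 and 7.27 in WT Treg (log2 difference 0.51, adjusted p = 0.0237 from limma). Its groups did not overlap, and it did not pass without HDAC10-/- replicate 3 (adjusted p = 0.106) or WT replicate 1 (0.109). The part of cells other than Treg in the rise of Ctsh was not tested. Ctsc, the gene of cathepsin C itself, was at 10.17 to 10.28 against 10.03 to 10.05 and did not pass (0.16, adjusted p = 0.267).

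Granule exocytosis depends on proteins that dock and fuse the granule. Of 17 such genes none fell and 1 rose, against 1.25% of all probe sets (median log2 difference -0.043). This was Stx11, which encodes syntaxin 11, a fusion protein whose loss in humans impairs killing. Stx11 was at 9.71, 9.75 and 9.67 in HDAC10-/- and 9.34, 9.36 and 9.41 in WT Treg (log2 difference 0.34, adjusted p = 0.0525 from limma). With 1 array left out it passed only in the fit without HDAC10-/- replicate 1, and reached an adjusted p of 0.183 in the others. Vamp8, a vesicle fusion gene, had -0.17 (adjusted p = 0.335).

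None of 16 measured regulators of the cytotoxic programme rose or fell (median log2 difference -0.073). The smallest p were those of Bach2, which encodes a repressor of effector differentiation (log2 difference 0.26, adjusted p = 0.163), and Id3, an inhibitor of E proteins (-0.18, adjusted p = 0.193). Of 2 regulators named after their values were seen, Tbx21, which encodes T-bet, had -0.05 (adjusted p = 0.824) and Prdm1, which encodes Blimp-1, had 0.11 (adjusted p = 0.45). In limma 0 of these 16 genes passed, and 5 had an unadjusted p under 0.05.

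Other effector molecules of killer and helper cells, the cytokines and death ligands, included no gene that rose. Of 12 genes 2 fell, against 0.757% of all probe sets, with a median log2 difference of -0.24. Tnfsf14, which encodes the cytokine LIGHT, was at 7.75, 7.74 and 7.88 in HDAC10-/- and 8.27, 8.09 and 8.34 in WT Treg (log2 difference -0.44, adjusted p = 0.0707). Ltb, which encodes lymphotoxin beta, was at 11.42 to 11.46 against 11.71 to 11.72 (-0.27, adjusted p = 0.0782). Of the fits with 1 array left out, Tnfsf14 passed only in that without WT replicate 2 and Ltb only in that without HDAC10-/- replicate 1, and their adjusted p reached 0.23 and 0.259 in the others. For 6 of the 12 genes all HDAC10-/- arrays lay below all WT arrays and for 2 above, against 10.9% and 9.89% of all probe sets. Named after their values were seen, the 6 include Ifng (-0.36, adjusted p = 0.131) and Fasl, the gene of a death ligand (-0.26, adjusted p = 0.234), and the 2 were the chemokine gene Ccl3 (0.43, adjusted p = 0.171) and the cytokine gene Csf2 (0.18, adjusted p = 0.294), none of which passed.

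**Figure D3:**
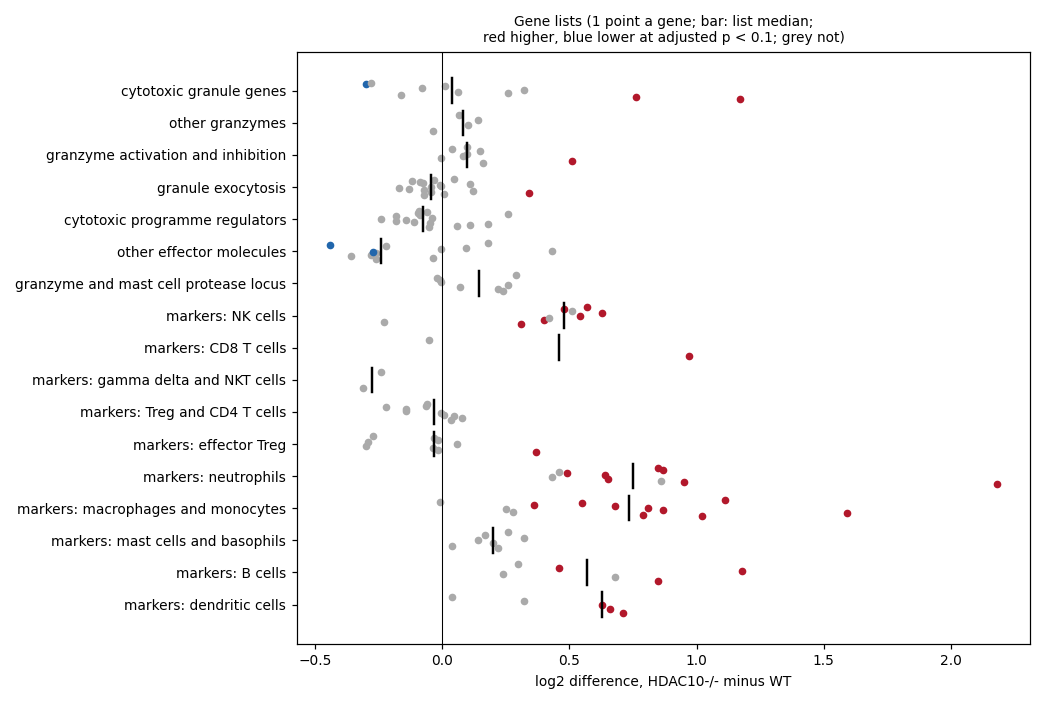
Log2 difference between HDAC10-/- and WT Treg for every measured gene of each list, 1 point a gene, with the list median as a bar; red and blue mark genes higher or lower at an adjusted p under 0.1. The cytotoxic granule genes spread from -0.30 to 1.17 around a median of 0.038, and the NK cell markers from -0.23 to 0.63 around 0.48. Marker medians were higher for neutrophils (0.75), macrophages and monocytes (0.73), dendritic cells (0.63) and B cells (0.57).

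Some markers of other cells that could carry granzymes also rose between genotypes, as did 1.25% of all probe sets. Of 13 NK cell markers 9 were measured, 6 rose and none fell. The 6 were Ncr1, the gene of the activating receptor NKp46 (log2 difference 0.31, adjusted p = 0.0698), the lectin receptor genes Klrk1 (0.40, adjusted p = 0.0735), Klrc1 (0.54, adjusted p = 0.0123), Klrd1 (0.63, adjusted p = 0.0152) and Klri2 (0.48, adjusted p = 0.0356), and Tyrobp, an adaptor that myeloid cells also express (0.57, adjusted p = 0.0477). The summed linear signal of the 9 was 2844 to 2975 in HDAC10-/- and 2103 to 2180 in WT arrays. With 1 array left out 5 passed without HDAC10-/- replicate 1, 4 without WT replicate 2 and 3 without HDAC10-/- replicate 2. Without WT replicate 1 or 3 or HDAC10-/- replicate 3, the 2 that passed were Klrc1 and Klrd1, which passed in all 6 of these fits. Klrk1 passed in none of them (adjusted p = 0.108 to 0.231) and Ncr1 only without HDAC10-/- replicate 1. Klrb1c, the gene of NK1.1, had -0.23 (adjusted p = 0.448), with overlapping groups. Nkg7, which NK cells and CD8 T cells express strongly, had -0.08, as given above, with a mean signal at percentile 97.0 of all probe sets. No marker is at 0 on this scale, since the arrays carry background signal. The part of NK cells in the rise of the granzymes was not tested.

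Of the 2 CD8 T cell markers, Cd8a rose (log2 difference 0.97, adjusted p = 0.0449) and Cd8b1 did not pass (-0.05, adjusted p = 0.858). The summed signal of the pair was 785 to 987 in HDAC10-/- and 795 to 842 in WT arrays, which overlap. Cd8a is also made by some dendritic cells, and it did not pass when any HDAC10-/- array or WT replicate 3 was left out (adjusted p from 0.1 to 0.144). The part of CD8 T cells was not tested. For NKT and gamma delta T cells only Zbtb16 (-0.31, adjusted p = 0.134) and Cd160 (-0.24, adjusted p = 0.198) were measured, and neither passed. Their HDAC10-/- arrays lay below all WT arrays, as for 10.9% of all probe sets.

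Markers of cells that are not lymphocyte killers rose as well. Of 10 neutrophil markers 7 rose, with summed signals of 800 to 1079 in HDAC10-/- and 445 to 502 in WT arrays. The 7 were the granule genes Ngp (log2 difference 2.18), Ltf (0.95), Lcn2 (0.87), Elane (0.64) and Mpo (0.49), with Retnlg (0.85) and S100a9 (0.65), at adjusted p of 0.00214 to 0.085 in limma. With 1 array left out 3 to 7 of the list passed, with 3 (Ngp, Ltf and Retnlg) without WT replicate 1 and 4 without HDAC10-/- replicate 2 or WT replicate 3. Of 12 macrophage and monocyte markers 9 rose, with sums of 2035 to 2347 against 1336 to 1444. Their log2 differences were 1.59 for Lyz2, 1.11 for Spic, 1.02 for Csf1r, 0.87 for Adgre1, 0.81 for C1qb, 0.79 for Mrc1, 0.68 for C1qc, 0.55 for Itgam and 0.36 for Cd14. With 1 array left out 6 passed without HDAC10-/- replicate 1 or 3 or without WT replicate 3. In the fits that lacked HDAC10-/- replicate 2, WT replicate 1 or WT replicate 2, 4 passed, Csf1r, Mrc1, Adgre1 and C1qb. Spic and Cd14 passed in none of the 6. Of 6 B cell markers Ebf1 (1.18), Ms4a1 (0.85) and Pax5 (0.46) rose, with list sums of 2569 to 3031 against 1946 to 2110. With 1 array left out, Ebf1 was the 1 that passed without WT replicate 1 or 3 or HDAC10-/- replicate 2, and Ms4a1 passed with it in the others. Of 5 dendritic cell markers Flt3 (0.71), Itgax (0.66) and Siglech (0.63) rose, with sums of 694 to 751 against 475 to 513. With 1 array left out, Flt3 was the 1 that passed without WT replicate 1 or 3 or HDAC10-/- replicate 3, 2 passed without HDAC10-/- replicate 2 or WT replicate 2, and 3 without HDAC10-/- replicate 1. None of 7 mast cell and basophil markers rose (Hdc 0.32, adjusted p = 0.191, and Kit 0.17, adjusted p = 0.241), with sums of 874 to 1103 against 810 to 826. Macrophages and neutrophils also express Srgn (log2 difference 0.013) and Cst7 (-0.30). Srgn and Cst7 had mean signals over the 6 arrays at percentiles 98.9 and 95.5 of all probe sets. The part of these cells in the values of the granule genes was not tested.

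Within the Treg compartment, effector Treg are the activated fraction. Of 9 measured genes of effector Treg 1 rose, the receptor gene Klrg1 (log2 difference 0.37, adjusted p = 0.0679), and none fell (median -0.033). Klrg1 is expressed by NK cells too, and of the fits with 1 array left out it passed only in that without HDAC10-/- replicate 1, with an adjusted p of up to 0.217 in the others. Cxcr3, a chemokine receptor gene of this fraction, had -0.30 (adjusted p = 0.108), and without HDAC10-/- replicate 1 it fell, with Ebi3.

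**Figure D4:**
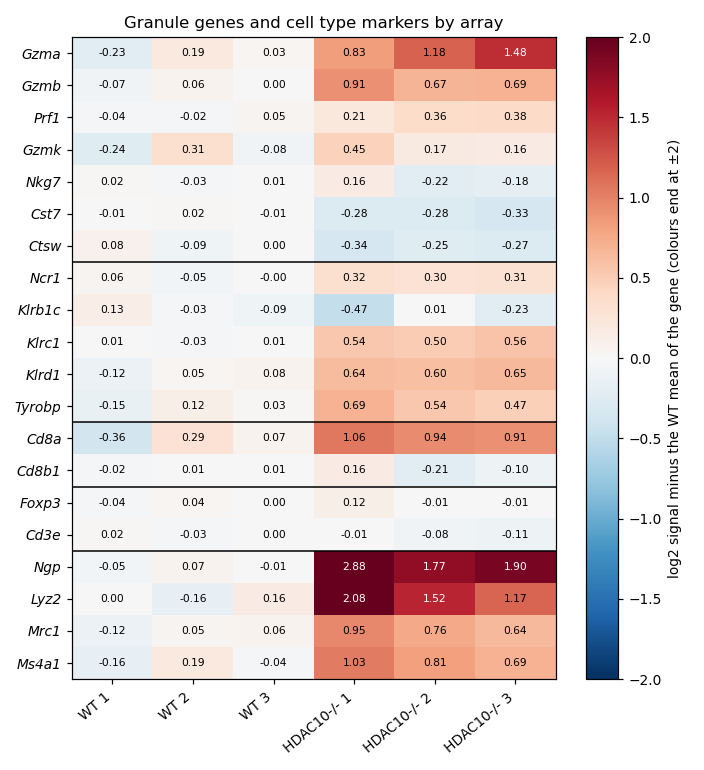
Log2 signal of granule genes and of cell type markers in each array, minus the WT mean of the same gene; colours end at 2 log2 units on either side. In HDAC10-/- Treg, Gzma is lowest in replicate 1 and Gzmb highest there, Klrc1 and Klrd1 are nearly level over the 3 arrays, and Ngp and Lyz2 peak in replicate 1.

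Gene profiles over the 6 arrays were compared by the root mean square difference of log2 signals after each gene's own mean was taken off, given here as a description, since a shared difference between genotypes makes up most of it. The profile of Gzmb itself had a root mean square of 0.39 around its mean. The 5 genes nearest to it were Themis2, a signaling gene of B cells and macrophages (0.0394), Sirpa, an inhibitory receptor gene of myeloid cells (0.0515), the mannose receptor gene Mrc1 (0.0537), Lynx1 (0.0571) and Cd24a (0.0628). All 5 had log2 differences of 0.76 to 0.79 and, like Gzmb, were highest in HDAC10-/- replicate 1. This likeness follows from picking them as nearest to Gzmb. Among the granule genes Prf1 was nearest to Gzmb (0.259, with 512 genes nearer), followed by Gzmk (0.28) and Gzma (0.338).

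The profile of Gzma had a root mean square of 0.625 and fewer near neighbors. They were Gm6818 (0.159), the fibronectin gene Fn1 (0.218), the inhibitory receptor gene Pirb (0.245), the Polycomb gene Cbx7 (0.246) and the chemokine receptor gene Ccr3 (0.246). Gzmb was the granule gene nearest to Gzma, at 0.338 with 55 genes nearer, and Prf1 followed at 0.46. Cst7 and Ctsw, at 0.768 and 0.764, were the granule genes farthest from Gzma.

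The calls of the granule genes were recomputed under other settings. Over 15 alternatives Gzmb kept its call in 14, Gzma in 11 and Cst7 in 9, and the direction of all 3 stayed the same. Prf1 passed in 7 of 15 and Ctsw in 4 of 15, in the direction of their reported difference.

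**Figure D5:**
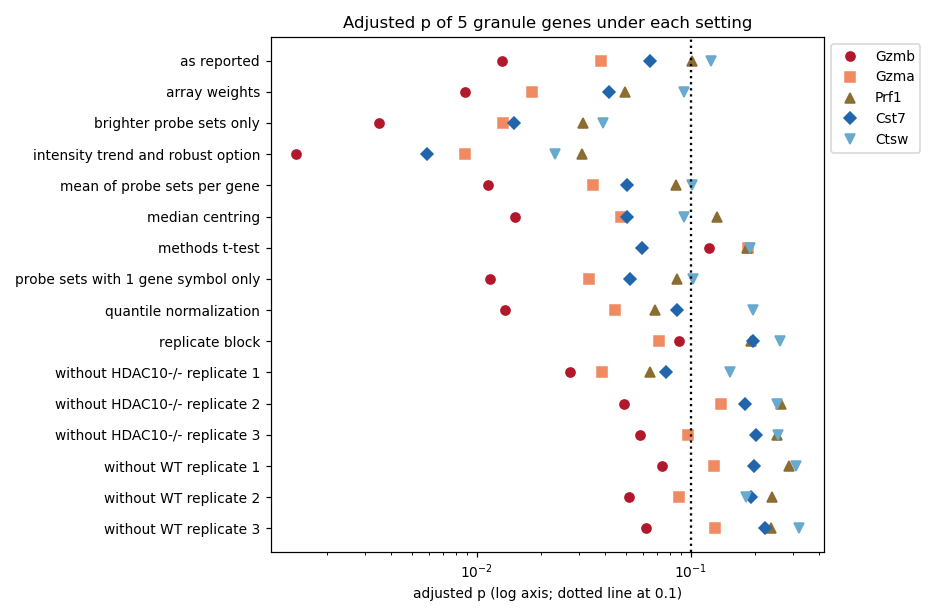
Adjusted p of Gzmb, Gzma, Prf1, Cst7 and Ctsw, on a log axis with a dotted line at 0.1, as reported and under each other setting. Gzmb lies left of the line in all but the methods' t-test, and Cst7 lies right of it in 5 of the 6 fits with 1 array left out.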

How the data were processed

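The authors hybridized RNA of 6 Treg samples to Mouse Gene 2.0 ST arrays and summarised them with Transcriptome Analysis Console 4.0 using robust multiarray averaging, per the labels and the methods. They deposited 1 log2 signal per probe set and array, rounded to 2 decimals, which was used as it stands. Of 34472 probe sets, 23521 have exactly 1 gene symbol in the platform annotation used here. HDAC10-/- and WT Treg were compared with limma 3.58.1 in R 4.3.3 (lmFit and eBayes, no intensity trend, prior degrees of freedom 3.23), adjusted over all probe sets, and the script was tested on simulated data. Of several probe sets of a gene the one with the highest mean was used. Named genes are the 10 members, the defining markers, those of each list that passed or, where fewer than 2 passed, the 2 with the smallest p, and the 5 nearest profiles to Gzmb and Gzma. The members and lists were chosen with earlier results of these data known. Of the listed genes, Gzme, Zeb2, Zfp683, Tcf7, Klra3, Klra4, Klra7, Klra8, Trdc, Tcrg-C1, Il1rl1 and Clec9a, among others, had no probe set annotated to them alone and were not analysed. Arrays have no read depth. Replicate numbers do not pair the samples as far as the labels say. Alternatives were other tests, scalings, filters and thresholds and each array left out.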

Additional observations from a re-analysis of the deposited data

How the results depend on the processing

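Counts of probe sets higher and lower at an adjusted p under 0.1 (431 and 261) became 762 and 570 with array weights, 869 and 887 with an intensity trend and the robust option, 923 and 1077 among brighter probe sets, 83 and 98 with the methods' t-test, 146 and 90 with the 1.5-fold minimum and 200 and 105 at an adjusted p under 0.05. Median centring gave 418 lower. With the replicate number as a block they were 135 and 70. Same-numbered arrays did not deviate together (correlations of -0.003, 0.001 and -0.024), so no pairing by number was visible. This cannot show whether same-numbered samples were prepared together. Leaving out 1 array gave 105 to 606 higher and 69 to 479 lower. Of the 10 granule genes, 2 fell with array weights, the trend and robust option, brighter probe sets or median centring, 0 with the block (Cst7, adjusted p = 0.195), the 1.5-fold minimum or the 0.05 threshold, and 0 rose with the t-test. With Prf1 added, 3 rose with array weights, the trend and robust option, quantile normalization or brighter probe sets. The same 3 rose with probe sets averaged per gene or limited to those with 1 gene symbol. Leaving out 1 array gave 1 to 3 higher and 0 to 1 lower. Srgn turned sign with array weights (-0.00055), with median centring (-0.02) and between arrays left out (-0.017 to 0.045), near 0 throughout. Each granule gene has 1 probe set, so averaging probe sets left its log2 difference the same. The adjusted p changed, and Prf1 passed (0.0856 in limma). Gzmc has no probe set among the brighter. The list counts with 1 array left out were chosen after seeing the data.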
